A study of Homo sapiens with 6 samples.

Results

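Genes of serine, one-carbon and asparagine synthesis were followed in cells in which CIP2A had been silenced. They were PHGDH, PSAT1, PSPH, SHMT1, SHMT2, MTHFD2, MTHFD1L, ALDH1L2, ASNS and PYCR1. They were taken by name as enzymes of these pathways, with earlier results of these data known, and are 10 of the 26485 genes in the count table. All 10 were among the 13562 genes with enough counts to be tested.

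The data are gene-level read counts of poly(A) RNA from 6 libraries of HCC38, a human breast ductal carcinoma line labelled triple negative and basal-like. The product of CIP2A, which the table names KIAA1524, inhibits the phosphatase PP2A. The 3 controls were a mock and the non-targeting siRNAs SCR#2 and SCR#3, with 1 library each. The other 3 libraries each held cells given a different CIP2A siRNA, named siCIP2A#1, siCIP2A#2 and siCIP2A#3, delivered with Oligofectamine. The mock received the reagent alone by its treatment label, while the series' design names it as a control without transfection. The cells carried no other labelled treatment, and neither a time after transfection nor a siRNA dose is given in the sources used here. No label states that each library had its own culture, and the p-values therefore measure only the spread between these libraries, which may be technical. As the libraries of a group received different reagents, that spread also holds any difference between reagents.

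Serine is built from the glycolytic intermediate 3-phosphoglycerate by PHGDH, PSAT1 and PSPH acting in turn. Serine hydroxymethyltransferases then pass a carbon from serine to folate, and the mitochondrial folate enzymes carry that carbon to formate, which feeds nucleotide synthesis. ASNS makes asparagine from aspartate and glutamine, and PYCR1 makes proline in mitochondria. Several of these genes are known targets of ATF4, a transcription factor that acts when amino acids run short.

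Levels are given as CPM, read counts scaled to a common library size with TMM factors (0.982 to 1.02). Values of the controls are listed in the order mock, SCR#2, SCR#3, and those of the siRNAs in the order siCIP2A#1, siCIP2A#2, siCIP2A#3. The total count ran from 13995187 in the mock to 18161451 with siCIP2A#1. A count of 3 corresponded to 0.162 to 0.218 CPM, and every member lay above 10.0 CPM in every library. That floor covers counting error only. CIP2A itself stood at 98.9 CPM in the mock, 99.8 CPM under SCR#2 and 103 CPM under SCR#3, and at 16.3, 45.8 and 19.3 CPM with siCIP2A#1, siCIP2A#2 and siCIP2A#3. It fell with each siRNA against the controls, to 16.3%, 45.5% and 19.2% of their mean, and the adjusted p of edgeR's quasi-likelihood test was 2.41e-04, 0.0165 and 4.68e-04. The library labelled siCIP2A#2 thus kept the most CIP2A RNA of the 3, by a log2 difference of 1.49 (SE 0.15) from siCIP2A#1 with an edgeR adjusted p of 0.0302, and of 1.25 (SE 0.15) from siCIP2A#3 with an edgeR adjusted p of 0.0657. The simple epithelial keratin genes KRT8 (252 to 439 CPM) and KRT18 (395 to 708 CPM) and the receptor gene EGFR (73.0 to 84.4 CPM) were abundant. Transcripts of the basal keratins KRT5, KRT14 and KRT17 were at or under 0.0679 CPM in every library. KRT19, another simple epithelial keratin gene, was at 0.177 to 0.710 CPM, EPCAM at 0.437 to 0.747 CPM and CDH1 at 0.146 to 1.22 CPM. The basal keratins, KRT19, EPCAM and CDH1, markers of the labelled cell type, were thus at or near 0. Of the receptor genes that define the triple negative class, ESR1 and PGR did not exceed 0.351 CPM, while ERBB2 was at 48.3 to 74.4 CPM and highest with siCIP2A#2. The leukocyte gene PTPRC and the endothelial gene CDH5 had no counts, while PECAM1, another endothelial marker, was at 3.00 to 6.22 CPM. The level of PDGFRB, a mesenchymal receptor gene, was 2.38 CPM with siCIP2A#1 and 0.707 to 1.64 CPM elsewhere. COL1A1, a collagen gene of fibroblasts, was 14.4 CPM with siCIP2A#1 and 4.61 to 6.59 CPM elsewhere. It rose with siCIP2A#1 by a log2 difference of 1.52 (edgeR adjusted p = 0.0270), and its part in the results below was not tested.

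Each CIP2A siRNA was compared with the 3 controls in edgeR, with Benjamini-Hochberg adjustment over all 13562 genes and a threshold of 0.05. The spread in that model comes from the 3 controls alone, with 2 residual degrees of freedom, and the single siRNA library is assumed to vary as the controls do. With siCIP2A#2 the enzymes of serine synthesis, mitochondrial folate metabolism, asparagine synthesis and proline synthesis were mostly at their highest level of the 6 libraries, and PSAT1 passed the test. With siCIP2A#1 and siCIP2A#3 no member passed it. In these bulk samples, a change in the number of expressing cells and a change in RNA per cell cannot be told apart.

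PHGDH, the first enzyme of serine synthesis, lies on chromosome 1 from 119711934 to 119744215 (GRCh38.p14, as all positions here). It stood at 79.9, 74.4 and 71.7 CPM in the controls and 73.0, 129 and 74.0 CPM with the 3 siRNAs. The siCIP2A#2 library was the high one, and the other 2 siRNA libraries lay within the range of the controls. Its level with siCIP2A#2 was 171% of the control mean of 75.4 ± 4.18 CPM (SD, n = 3), a log2 difference of 0.78 (SE 0.11) with an edgeR adjusted p of 0.0785.

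PSAT1, the aminotransferase of the next step, lies on chromosome 9 from 78297125 to 78330093. It stood at 148, 158 and 154 CPM in the controls and 139, 282 and 153 CPM with the 3 siRNAs. The siCIP2A#2 library again stood apart above the rest, and siCIP2A#1 lay just below the lowest control. PSAT1 rose with siCIP2A#2 to 184% of the control mean of 153 ± 5.08 CPM (SD, n = 3), a log2 difference of 0.88 (SE 0.09) with an edgeR adjusted p of 0.0165. By p it was gene 6 of all those tested with this siRNA, and 1.01% of tested genes had a higher log2 difference.

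PSPH, the phosphatase that releases serine, lies on chromosome 7 from 56011064 to 56051444. It stood at 47.7, 44.6 and 47.5 CPM in the controls and 42.6, 54.3 and 43.8 CPM with the 3 siRNAs. Here siCIP2A#2 was above all 3 controls while siCIP2A#1 and siCIP2A#3 were below them. The log2 difference with siCIP2A#2 was 0.22 (SE 0.12; edgeR adjusted p = 0.488), the smallest of the 3 enzymes of the pathway. Summed over the 3 genes, the level was 276, 277 and 273 CPM in the controls and 254, 465 and 271 CPM with the 3 siRNAs.

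**Figure D1:**
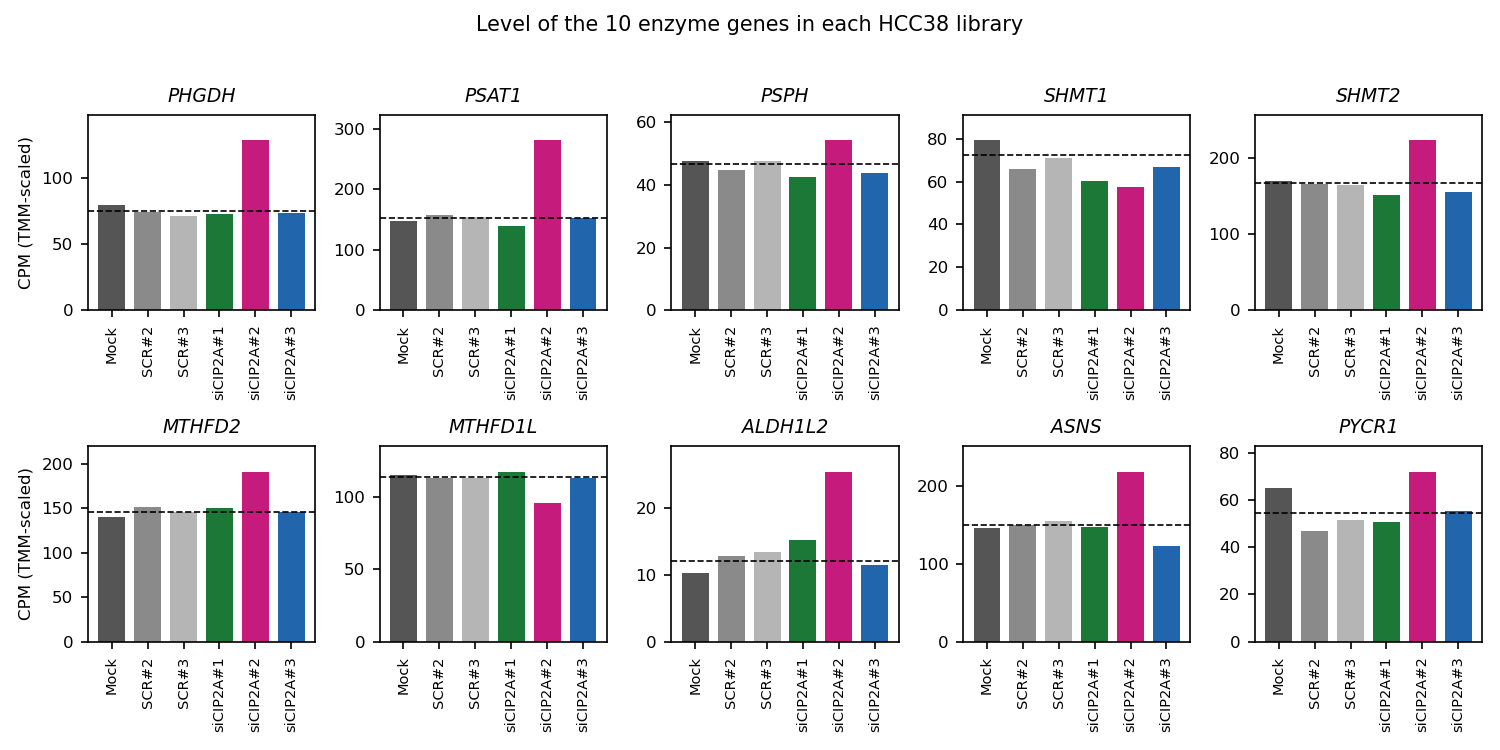
Level of each of the 10 enzyme genes (y axis, CPM over the TMM-scaled library size, from 0) in the 6 HCC38 libraries (x axis). Gray bars are the mock, SCR#2 and SCR#3, green, magenta and blue bars are siCIP2A#1, siCIP2A#2 and siCIP2A#3, and the dashed line is the control mean. The magenta bar is the highest in 8 of 10 panels and the lowest for SHMT1 and MTHFD1L.

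The 2 serine hydroxymethyltransferase genes did not share a direction with siCIP2A#2. SHMT2 encodes the mitochondrial form and lies on chromosome 12 from 57229711 to 57234935. It stood at 170.2, 166 and 165 CPM in the controls and 152, 224 and 156 CPM with the 3 siRNAs. The siCIP2A#2 library was above the controls and the other 2 siRNA libraries below them. With siCIP2A#2 the log2 difference was 0.42 (SE 0.09; edgeR adjusted p = 0.220), over a control mean of 167 ± 2.86 CPM (SD, n = 3).

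SHMT1 encodes the cytosolic form and lies on chromosome 17 from 18327873 to 18363550, where it overlaps SMCR8. It stood at 79.3, 66.0 and 71.1 CPM in the controls and 60.3, 57.6 and 66.6 CPM with the 3 siRNAs. The siRNA libraries were at the low end, siCIP2A#1 and siCIP2A#2 below every control and siCIP2A#3 between SCR#2 and SCR#3. The log2 differences from the controls were -0.26, -0.32 and -0.12 with siCIP2A#1, siCIP2A#2 and siCIP2A#3, with edgeR adjusted p of 0.584, 0.409 and 0.874.

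Among the mitochondrial folate enzymes, MTHFD2, a dehydrogenase and cyclohydrolase, lies on chromosome 2 from 74198615 to 74217565, where it overlaps SLC4A5. It stood at 140.4, 151 and 145 CPM in the controls and 150.5, 191 and 145 CPM with the 3 siRNAs. Only siCIP2A#2 was above the controls, and the other 2 siRNA libraries lay among the controls. Its log2 difference with siCIP2A#2 was 0.39 (SE 0.10; edgeR adjusted p = 0.254).

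MTHFD1L, which makes formate from the folate-bound carbon, lies on chromosome 6 from 150865702 to 151101887. It stood at 115, 113 and 113 CPM in the controls and 118, 95.5 and 113 CPM with the 3 siRNAs. It was the most even member among the controls, whose range was 1.99% of their mean, and siCIP2A#2 was the lowest library. The log2 difference with siCIP2A#2 was -0.25 (SE 0.10; edgeR adjusted p = 0.397), opposite in sign to that of MTHFD2.

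ALDH1L2, which burns the folate-bound carbon to carbon dioxide while making NADPH, lies on chromosome 12 from 105019790 to 105084458. It was the member with the fewest counts, 10.3, 12.9 and 13.4 CPM in the controls and 15.2, 25.5 and 11.4 CPM with the 3 siRNAs. Both siCIP2A#1 and siCIP2A#2 were above all controls, and the controls themselves spread over 25.5% of their mean. It had the highest log2 difference of the members with siCIP2A#2, 1.06 (SE 0.17), with an edgeR adjusted p of 0.110, and 0.457% of all tested genes had a higher one.

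ASNS, asparagine synthetase, lies on chromosome 7 from 97851677 to 97928441, where it overlaps the readthrough gene CZ1P-ASNS. It stood at 146, 150.4 and 155 CPM in the controls and 148, 219 and 123 CPM with the 3 siRNAs. The siRNA libraries fell on both sides of the controls, siCIP2A#2 above, siCIP2A#3 below and siCIP2A#1 among them. With siCIP2A#2 the log2 difference was 0.54 (SE 0.09; edgeR adjusted p = 0.130) and with siCIP2A#3 it was -0.29 (SE 0.10; edgeR adjusted p = 0.548).

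PYCR1, the mitochondrial proline enzyme, lies on chromosome 17 from 81932391 to 81937300. It stood at 65.2, 47.1 and 51.4 CPM in the controls and 50.7, 72.1 and 55.3 CPM with the 3 siRNAs. The mock was the high library of the controls, which spread over 33.2% of their mean, the widest of the members. The log2 difference with siCIP2A#2 was 0.41 (SE 0.17; edgeR adjusted p = 0.414).

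Promoter sequence is shown because several members are known ATF4 targets and most of them were high in the same library. RefSeq windows on GRCh38.p14, from 250 bases before to 50 bases after a start, were found for 6 of the 10 members. They were searched on both strands for TGATGNAA, letters typical of the composite element bound by ATF4 with a C/EBP partner. The motif was in windows of ASNS and MTHFD1L, and none was found in the windows of PHGDH, PSAT1, SHMT1 and MTHFD2. The match is in capitals in the 30 bases shown, each read 5′ to 3′ along the gene's own strand. The ASNS site, chr7:97872458-97872487 on the minus strand, has its match from 68 bases before the start in 1 of 2 windows. The MTHFD1L site, chr6:150866346-150866375 on the plus strand, is the same site in 3 of its 4 windows. Its match begins 129 bases before the start in 1 window, 90 bases before it in another and 24 bases after it in the last.
ASNS: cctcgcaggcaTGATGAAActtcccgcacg
MTHFD1L: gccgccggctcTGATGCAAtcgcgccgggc
Of all 35116 windows, 3.62% held the motif, as did a window of 2.76% of the 10088 tested genes with one. With siCIP2A#2, ASNS stood above the controls and MTHFD1L below them, so the members with these letters did not share a direction. No binding was measured here, and a match of these letters describes the sequence only.

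Across the members with siCIP2A#2, 1 of 10 passed the test, PSAT1, beside 0.0737% of all tested genes in either direction and 0.0516% in the higher direction. At an unadjusted p under 0.05 there were 9 of 10 members, 7 higher and 2 lower, beside 11.6% of all tested genes. The median log2 difference of the members was 0.41, against -0.0030 over all tested genes. The count of members called depended on the setting. DESeq2 called 4 (PHGDH, PSAT1, ALDH1L2 and ASNS) beside 0.532% of its genes, and edgeR without a filter on low counts called the same 4 beside 0.570%. Without SCR#2 and without SCR#3 it was 3 (PHGDH, PSAT1 and ALDH1L2), beside 0.292% and 0.363% of genes. Without the mock all 10 passed, beside 22.4% of all genes tested. The spread in that fit comes from SCR#2 and SCR#3 alone, whose counts were the closest of any pair within a group (chi-square per degree of freedom 3.22, against 9.06 and 11.4 with the mock). PSAT1 passed in 10 of 10 alternatives, with log2 differences from 0.85 to 0.90.

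With siCIP2A#1, 0 of 10 members passed, beside 0.118% of all tested genes, and 0 had an unadjusted p under 0.05, beside 9.95%. Their median log2 difference was -0.07, and the range ran from -0.26 for SHMT1 to 0.32 for ALDH1L2. With siCIP2A#3, 0 of 10 passed, beside 0.00737% of all tested genes, and ASNS alone had an unadjusted p under 0.05 (0.0171), beside 8.22% of all tested genes. The median was -0.06. The log2 differences of PHGDH, PSAT1, MTHFD2 and MTHFD1L with siCIP2A#3 were -0.03, -0.0014, -0.0048 and -0.0078, and each of these changed sign under some alternative.

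**Figure D2:**
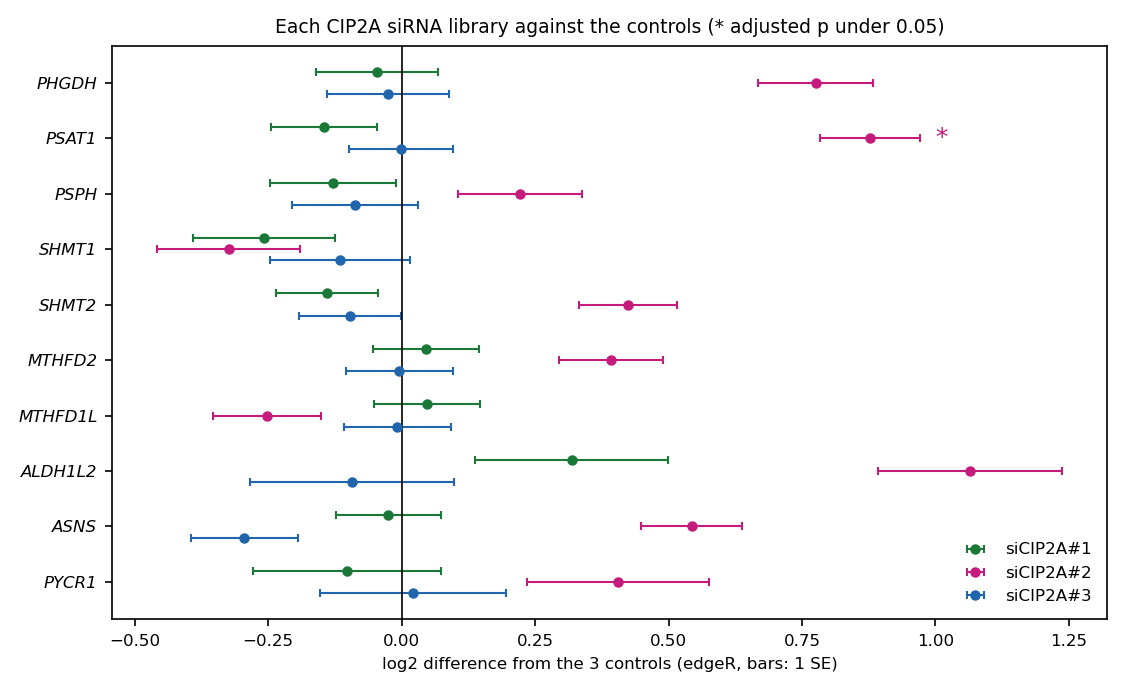
Log2 difference of each siRNA library from the 3 controls (x axis; points with bars of 1 SE from edgeR) for the 10 genes (y axis). Green is siCIP2A#1, magenta siCIP2A#2 and blue siCIP2A#3, and the star marks PSAT1 with siCIP2A#2, the value with an adjusted p under 0.05. The siCIP2A#2 points run from -0.32 for SHMT1 to 1.06 for ALDH1L2.

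By the order of the levels alone, siCIP2A#2 was above all 3 controls for 8 members and below them for 2, where 28.6% and 30.7% of all tested genes were so placed. It was the highest of the 6 libraries for the same 8, beside 20.9% of all tested genes, and the lowest for SHMT1 and MTHFD1L, beside 21.4%. By the same order siCIP2A#1 was above all controls for 2 members (MTHFD1L and ALDH1L2) and below for 4 (PSAT1, PSPH, SHMT1 and SHMT2), beside 26.5% and 28.8%. For siCIP2A#3 the level was above all controls for none and below for 3 (PSPH, SHMT2 and ASNS), beside 25.7% and 28.6%. Summed over the 10 genes the level was 1002.1, 984 and 987 CPM in the controls and 948, 1350.4 and 942 CPM with the 3 siRNAs.

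When the siRNAs were compared with each other, no member passed the test. Between siCIP2A#2 and siCIP2A#1, PSAT1 had a log2 difference of 1.02 (SE 0.12; edgeR adjusted p = 0.0522), and PHGDH one of 0.82 (SE 0.14; edgeR adjusted p = 0.110). The members' median was 0.54, and 9 had an unadjusted p under 0.05 beside 12.1% of all tested genes. After adjustment 0 members and 0.0147% of all tested genes passed. Between siCIP2A#2 and siCIP2A#3, PSAT1 had a log2 difference of 0.88 (SE 0.12; edgeR adjusted p = 0.0746) and ASNS one of 0.84 (SE 0.12; edgeR adjusted p = 0.0806). The median was 0.46, and 6 had an unadjusted p under 0.05 beside 15.6% of all tested genes. After adjustment 0 members and 0% of all tested genes passed. In the main edgeR setting the rise of PSAT1 with siCIP2A#2 is therefore not shown to differ from the other siRNAs, though PSAT1 passed under some other settings of edgeR. DESeq2 called 2 and 3 members in these comparisons, beside 0.711% and 0.923% of its genes. Without a filter edgeR called 4 in each, PSAT1 among them, beside 0.815% and 1.10%. Leaving out the mock called 9 members in each of them, beside 16.7% and 22.0% of all genes tested. Between siCIP2A#1 and siCIP2A#3 the median was -0.03, and 0 of 10 passed beside 0.509% of all tested genes, with 0 at an unadjusted p under 0.05 beside 13.6%. ASNS had the smallest unadjusted p there, with a log2 difference of 0.27 (SE 0.12; edgeR adjusted p = 0.375).

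When the 3 siRNA libraries were taken as 1 group against the 3 controls, 0 of 10 members passed, beside 0% of all tested genes, and edgeR's adjusted p was 0.999 for each. SHMT1 alone had an unadjusted p under 0.05 (0.0487), beside 2.72% of all tested genes, with a log2 difference of -0.23. CIP2A itself had a log2 difference of -1.90 (SE 0.30) and an edgeR adjusted p of 0.708 in this comparison, with its residual levels of 16.3 to 45.8 CPM spread wider than the controls. Without siCIP2A#2 it passed, at -2.50 with an edgeR adjusted p of 1.20e-05, and with the replicate number as a block it passed at -2.03 with an edgeR adjusted p of 0.0345. The groups overlapped for all 10 members, whereas 3.26% of all tested genes had every siRNA library above every control and 4.38% below. The median log2 difference of the members was 0.12, and 8 were above 0. Without siCIP2A#2 the median was -0.06 and 3 were above 0, and PHGDH, PSAT1, PSPH, SHMT2, ASNS and PYCR1 turned negative while MTHFD1L turned positive. Without siCIP2A#1 or without siCIP2A#3 the median was 0.20.

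The controls were also compared with each other, since the non-targeting libraries received an siRNA and the mock received none. Against the mock, 0 of 10 members passed with the 2 non-targeting siRNAs, beside 0% of all tested genes, and 0 had an unadjusted p under 0.05, beside 6.31%. The spread in this fit comes from the non-targeting libraries and from the CIP2A siRNA libraries taken as a single level. Differences among the CIP2A siRNAs therefore widen it. PSAT1 had an SE of 0.36 here, against 0.09 for siCIP2A#2 against the controls. The lack of calls thus cannot show that the mock and the non-targeting libraries were alike. The members' median log2 difference was -0.03. PYCR1 was lowest at -0.40 (SE 0.20; edgeR adjusted p = 0.807), and ALDH1L2 highest at 0.35 (SE 0.40; edgeR adjusted p = 0.905). For ALDH1L2 that difference had the sign of the one with siCIP2A#2 but was smaller.

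Ratios within a library show how the balance between partner enzymes moved, with no need for scaling between libraries. These pairs were chosen after their values were seen, and 4 of the 5 tested are given. The log2 ratio of SHMT2 to SHMT1 was 1.10, 1.33 and 1.21 in the controls and 1.33, 1.96 and 1.23 with the siRNAs. The siCIP2A#2 library was 0.74 above the control mean of 1.22 ± 0.12 (SD, n = 3), and the other 2 lay within the controls. The log2 ratio of MTHFD2 to MTHFD1L was 0.29, 0.42 and 0.36 in the mock, SCR#2 and SCR#3, and 0.36, 1.00 and 0.36 with siCIP2A#1, siCIP2A#2 and siCIP2A#3. That of MTHFD2 to MTHFD1, the cytosolic folate enzyme, was -1.06, -0.90 and -1.01 in the same controls and -0.82, -0.38 and -0.91 with the same siRNAs. Here all 3 siRNA libraries were less negative than the mock and SCR#3, and siCIP2A#3 lay just below SCR#2. The log2 ratio of PSAT1 to PSPH was 1.63, 1.82 and 1.69 in the controls and 1.70, 2.37 and 1.80 with the siRNAs. In exact two-sided permutation tests of siRNA against control libraries, the p-values for these 4 ratios were 0.3, 0.5, 0.2 and 0.4 in this order, where 3 against 3 cannot go below 0.1. These tests pool the 3 siRNAs, so they cannot decide whether the ratios differed with siCIP2A#2 alone.

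**Figure D3:**
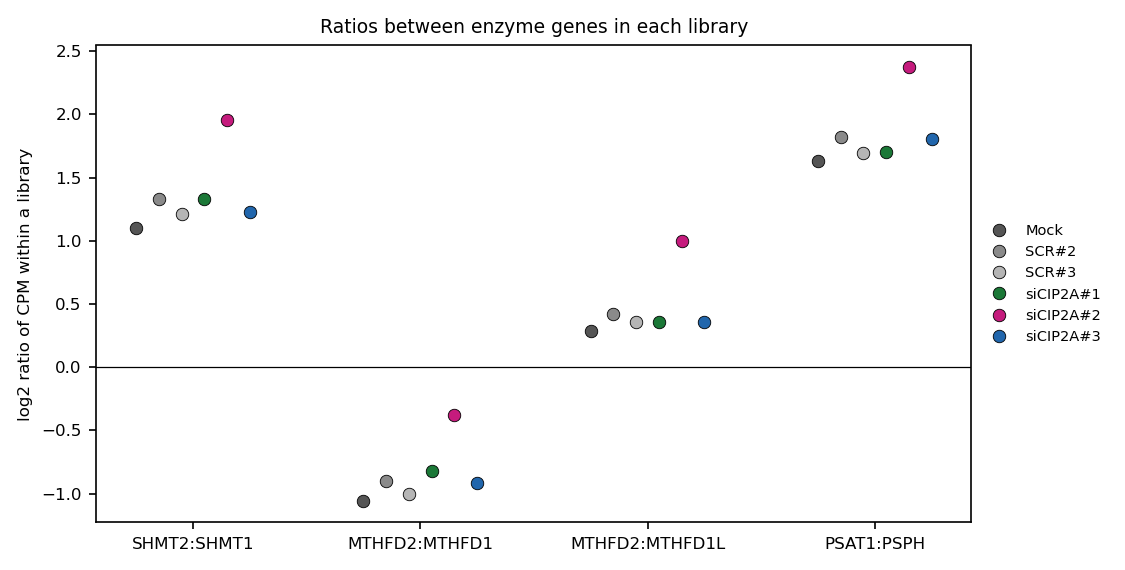
Log2 ratio of CPM between 2 enzyme genes of the same library (y axis) for 4 pairs (x axis), with 1 point per library. Gray points are controls, green siCIP2A#1, magenta siCIP2A#2 and blue siCIP2A#3. For SHMT2:SHMT1 the siCIP2A#2 point is at 1.96 and the other 5 lie between 1.10 and 1.33.

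Compared per length, as RPKM over the longest coding transcript of GENCODE 29, the members' control levels ran as follows. PSAT1 (70.0 ± 2.32 RPKM, SD, n = 3), SHMT2 (65.9 ± 1.13) and ASNS (63.9 ± 1.88) were highest, and the ranges of SHMT2 and ASNS overlapped. MTHFD2 (32.7 ± 1.24), MTHFD1L (31.6 ± 0.334), SHMT1 (29.3 ± 2.73), PHGDH (29.2 ± 1.62) and PYCR1 (28.7 ± 4.96) followed, with each neighbour overlapping the next. PSPH (21.4 ± 0.793) was lower, and ALDH1L2 (1.61 ± 0.221) lowest. The order rests on the transcript chosen: with the median transcript length SHMT2 led at 214 RPKM, MTHFD1L came next at 114, PSAT1 was at 85.2 and ALDH1L2 was again lowest at 3.01.

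Genes with a pattern like that of the members were looked for among 10117 genes, by the root mean square difference of centred log2 CPM over the 6 libraries. Closest to PSAT1 was DDIT3 (0.07), which encodes the stress transcription factor CHOP, followed by RPL41 (0.07), UBOX5 (0.07), POFUT2 (0.10) and PPL (0.13), where the median gene differed by 0.36. DDIT3 stood at 27.7, 27.2 and 26.4 CPM in the mock, SCR#2 and SCR#3, and at 26.0, 52.9 and 29.8 CPM with siCIP2A#1, siCIP2A#2 and siCIP2A#3. As for PSAT1, siCIP2A#2 was the high library, which follows from picking DDIT3 by its likeness to PSAT1 over these same libraries. Among the other members PHGDH was nearest to PSAT1 (0.09), then ASNS and SHMT2 (0.17 each), and MTHFD1L (0.44) and SHMT1 (0.45) were farthest. Closest to the mean of the 10 members were YARS, a tyrosyl-tRNA synthetase gene, IER3, CUEDC2 and ECE1 (0.04 each), where the median gene differed by 0.21. YARS stood at 256, 236 and 251 CPM in the controls and at 245, 316 and 233 CPM with siCIP2A#1, siCIP2A#2 and siCIP2A#3.

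Among the regulators of the amino acid response, of 16 genes, all tested, 4 rose with siCIP2A#2 and none fell, beside the 0.0516% of all tested genes that passed in the higher direction, and none passed with siCIP2A#1 or siCIP2A#3. This list, too, was chosen with earlier results of these data known, so its count is no independent support. CHAC1, which degrades glutathione, stood at 6.33, 4.62 and 4.48 CPM in the controls and 6.06, 21.4 and 5.07 CPM with siCIP2A#1, siCIP2A#2 and siCIP2A#3. It rose with siCIP2A#2 by a log2 difference of 2.06 (SE 0.20; edgeR adjusted p = 0.0165). SESN2, an inhibitor of mTORC1 signalling, stood at 17.2, 15.8 and 15.3 CPM in the controls and 19.4, 39.1 and 18.7 CPM with the siRNAs in the same order. It rose by 1.28 (SE 0.13; edgeR adjusted p = 0.0165). TRIB3, a pseudokinase, stood at 31.7, 30.2 and 29.1 CPM in the controls and 35.5, 60.6 and 28.3 CPM with the siRNAs. It rose by 1.00 (SE 0.12; edgeR adjusted p = 0.0310), and DDIT3 by 0.96 (SE 0.12; edgeR adjusted p = 0.0332). In each of these genes the siCIP2A#2 library was far above the other 5. ATF4 stood at 143, 142 and 131 CPM in the controls and 125, 181 and 139 CPM with the siRNAs, with a log2 difference of 0.39 (SE 0.10; edgeR adjusted p = 0.268) for siCIP2A#2. ATF3 was at 0.63 and ATF5 at -0.12 on the log2 scale with that siRNA, neither past the threshold. The list's median log2 difference was -0.05, 0.21 and -0.02 with siCIP2A#1, siCIP2A#2 and siCIP2A#3. Between siCIP2A#2 and the other siRNAs none of the 16 passed in edgeR, the smallest adjusted p being 0.0842 against siCIP2A#1 and 0.0657 against siCIP2A#3.

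Medians of the neighbouring pathways lay nearer 0 than the members' 0.41 with siCIP2A#2. Of the other folate genes, 18 of 20 were tested, none passed with any siRNA, and the median log2 difference was -0.05, -0.07 and -0.06 with siCIP2A#1, siCIP2A#2 and siCIP2A#3. Among them MTHFD1 was at -0.22 with siCIP2A#2 and MTHFD2L, the isozyme of MTHFD2, at 0.77 (SE 0.20; edgeR adjusted p = 0.258). ALDH1L1, the cytosolic counterpart of ALDH1L2, was not tested, with 1 count in the siCIP2A#1 library and 0 elsewhere. Of the genes of glycine cleavage and glycine use, 7 of 10 were tested and none passed, with medians of 0.02, -0.12 and 0.13. GLDC, the decarboxylase of glycine cleavage, was at -0.28 with siCIP2A#2 and 0.52 with siCIP2A#3, while AMT was at 0.41, DLD at -0.26 and GCSH at -1.32 with siCIP2A#2. GCSH was at 1.05 to 1.24 CPM in the controls and 0.452 to 0.595 CPM in the siRNA libraries, few counts in all.

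Of the methionine cycle and transsulfuration genes, 11 of 12 were tested and none passed, with medians of -0.0012, -0.06 and -0.02 for siCIP2A#1, siCIP2A#2 and siCIP2A#3. With siCIP2A#2 methionine synthase MTR was at -0.11, its reductase MTRR at -0.30, and the S-adenosylmethionine synthetase genes MAT2A and MAT2B at -0.13 and -0.06. Of the genes that use serine, 10 of 11 were tested and none passed, with medians of 0.04, -2.48e-04 and 0.06. SDSL, a serine dehydratase relative, was at 1.07 with siCIP2A#2 (SE 0.22; edgeR adjusted p = 0.199) and at 0.81 with siCIP2A#1. The racemase SRR was at -0.09 and SPTLC1, of sphingolipid synthesis, at -0.21 with siCIP2A#2, and SDS was not tested.

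Of the proline, glutamate and ornithine genes, 10 of 11 were tested and none passed, with medians of -0.12, -0.06 and -0.0095. With siCIP2A#2 ALDH18A1, the enzyme before PYCR1 in proline synthesis, was at 0.02, PYCR3 at -0.02 and OAT at -0.12. Of the aspartate, alanine and asparagine genes, 9 of 11 were tested, with medians of -0.03, -0.19 and 0.07, and none passed against the controls. The aminotransferase genes GOT1, GOT2 and GPT2 were at -0.12, -0.21 and 0.36 with siCIP2A#2, and GPT was not tested. SLC25A12, a mitochondrial aspartate and glutamate carrier, was lower with siCIP2A#1 (33.6 CPM) than with siCIP2A#3 (62.5 CPM), with an edgeR adjusted p of 0.0414, and stood at 53.5 to 54.9 CPM in the controls and 47.5 CPM with siCIP2A#2.

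**Figure D4:**
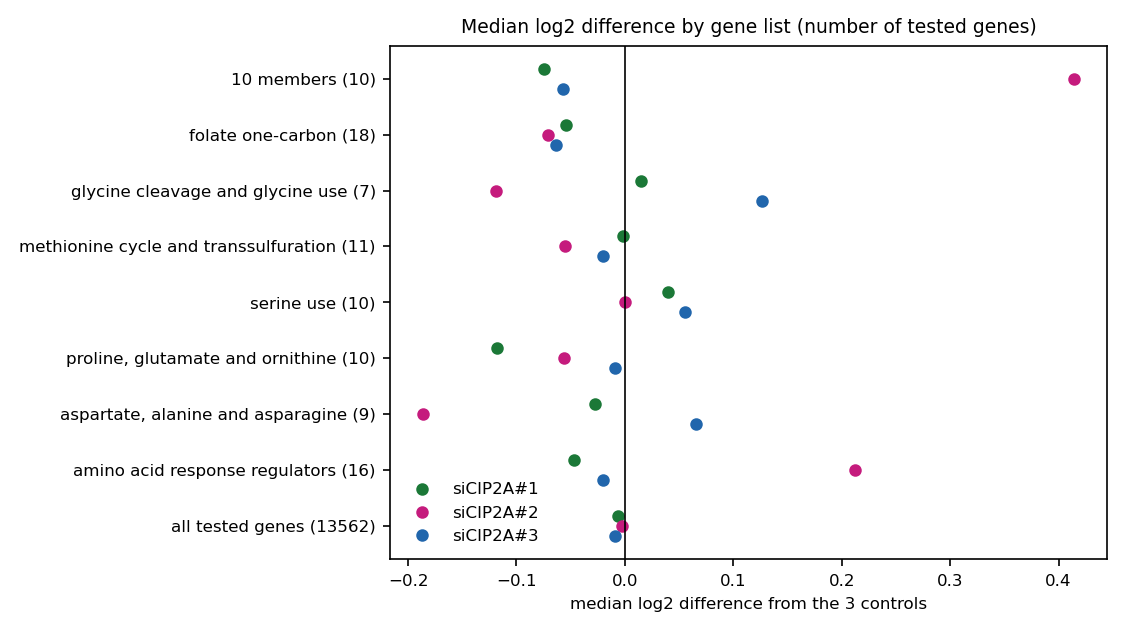
Median log2 difference from the 3 controls (x axis) of the 10 members, 7 lists of neighbouring genes and all tested genes (y axis, number of tested genes in brackets). Green points are siCIP2A#1, magenta siCIP2A#2 and blue siCIP2A#3. With siCIP2A#2 the members are at 0.41, the amino acid response regulators at 0.21 and the other lists between -0.19 and 0.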

How the data were processed

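The authors deposited read counts for each gene as whole numbers, not normalized, in a column for every library, per the file headers. The submitters' processing notes list the tools bcl2fastq (2.17), STAR (2.5.4b) and Subread (1.5.1) and the build hg38. For the counting, neither annotation, strand setting nor treatment of multi-mapping reads is given in the sources used here, which leaves paralogs and overlapping or antisense genes uncertain. MTHFD2P1, a pseudogene of MTHFD2, had 1 count with SCR#2 and 0 elsewhere. KIAA1524, DHFRL1 and PYCRL were renamed CIP2A, DHFR2 and PYCR3.

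Genes were filtered with filterByExpr (minimum count 10) and libraries scaled with TMM. In R 4.3.3, the quasi-likelihood test of edgeR 4.0.16 (robust) was run with Benjamini-Hochberg adjustment over 13562 genes and a threshold of 0.05. The group fit had 4 residual degrees of freedom, the fit with a level per siRNA 2, and the fit with mock, non-targeting and CIP2A levels 3. SE is the absolute log2 difference over the square root of F. Log2 CPM had a prior count of 2. The edgeR fits of the group comparison and of siCIP2A#2 were tested on simulated data.

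Libraries of 1 group differed by a chi-square per degree of freedom of 3.22 to 18.1, so none was a copy of another. No batch or date is labelled. Alternatives were RLE and upper quartile factors, DESeq2 1.42.0, limma-voom (limma 3.58.1), no filter, CPM of at least 1 in 3 libraries, the mock as a separate level, a replicate block and each library left out. Named genes were the 10 members, CIP2A, the 4 genes written first in each list, any list gene called, the 5 genes most like PSAT1 and the 5 most like the members' mean (mean log2 CPM of at least 3). Marker genes and the ratio pairs were named besides, and some genes that this rule names are not reported here. The members and lists were chosen with earlier results of these data known.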

Additional observations from a re-analysis of the deposited data

How the results depend on the processing

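For the group comparison 0 members passed in each alternative run. With the replicate block it was 0 members and a median log2 difference of 0.0980, while CIP2A passed with the block (adjusted p 0.0345). Control and siRNA libraries of the same number had deviations from their group means correlated across genes at -0.12, -0.13 and 0.00762. No library correlated best with the one of its own number. The deviations within a group of 3 depend on each other, and the reagents differ within each group. These values therefore cannot decide whether the numbers pair the libraries. Members called against the controls with siCIP2A#2 (1 as reported) were 4 with DESeq2, 4 with no filter, 9 with a level of its own for the mock (beside 22.1% of all genes), and 3 to 10 with a control left out, the 10 without the mock (22.4%). With siCIP2A#3 (0) it was 1 with the mock separate and 0 to 1 with a control left out, the 1 (ASNS) beside 8.97% of all genes with the mock separate and 9.65% without it, so about the background. Between siCIP2A#2 and siCIP2A#1 (0) it was 2, 4, 9 and 2 to 9 under the same 4 settings, beside 0.711%, 0.815%, 16.3% and 0.734% to 16.7% of genes, and between siCIP2A#2 and siCIP2A#3 (0) it was 3, 4, 9 and 4 to 9, beside 0.923%, 1.10%, 21.7% and 0.784% to 22.0%. Between siCIP2A#1 and siCIP2A#3 (0) it was 1 with the mock separate (ASNS, beside 17.4% of genes) and 0 to 1 with a control left out. Fits with the mock separate or left out take their spread from SCR#2 and SCR#3 alone. Signs turned in these cases. In the group comparison PSPH was at -0.000503 with limma-voom, and leaving out 1 library gave PHGDH -0.0371 to 0.429, PSAT1 -0.0725 to 0.503, PSPH -0.109 to 0.0745, SHMT2 -0.119 to 0.187, MTHFD1L -0.124 to 0.0194, ASNS -0.154 to 0.285 and PYCR1 -0.0412 to 0.268. With siCIP2A#1 PYCR1 was 0.0443 with the mock separate and -0.201 to 0.0431 with a control left out. With siCIP2A#3 RLE factors, DESeq2 and no filter gave PSAT1 0.00710, 0.00711 and 0.00821, MTHFD2 0.00372, 0.00374 and 0.00482, and MTHFD1L 0.000766, 0.000762 and 0.00192. The mock as a separate level gave MTHFD1L 0.000827 and PHGDH 0.0173. With a control left out PHGDH was -0.0589 to 0.0177, PSAT1 -0.0259 to 0.0209, MTHFD2 -0.0306 to 0.0233, MTHFD1L -0.0141 to 0.00122 and PYCR1 -0.0769 to 0.169. Between siCIP2A#1 and siCIP2A#3 PHGDH was 0.00221 with upper quartile factors. The causes of other moves were not tested. With 1 library per siRNA and 2 residual degrees of freedom, differences of the size seen for PHGDH, ALDH1L2 and ASNS lay above or below the threshold by setting.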
